A study of Homo sapiens with 8 samples.

Results

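The EGR transcription factors (EGR1, EGR2, EGR3 and EGR4), their corepressors NAB1 and NAB2, and SRF, the transcription factor that acts on EGR genes, were followed across 3 populations of H460 cells, an established human NSCLC (nonsmall cell lung cancer) line. These 7 genes were chosen by symbol. A probe belonged to a gene when the RefSeq accession of the array design mapped to it, which gave 11 of the 41000 probes, out of 16557 genes with a symbol. EGR1, EGR2, EGR3 and EGR4 had 1 probe each, NAB1 and NAB2 had 2 each and SRF had 3. Of these, 10 probes and 6 genes passed the filter on dim probes and were tested. EGR3 did not pass.

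RNA was measured on 8 dual-color whole human genome arrays. H460C are CSCs (cancer stem cells), grown as nonadherent spheres in serum-free DMEM/F12 with BSA (0.4%), N2, and the growth factors EGF and FGF-b. H460R are cisplatin-resistant cells, obtained from H460 by one exposure to cisplatin (0.5 µg/ml, 72 h) and later kept without the drug. H460R and the untreated H460 cells grew in medium with 10% serum. Each array set H460C or H460R against H460. Both populations had 2 RNA samples labeled as replicates, and each RNA sample went on 2 arrays, once in each dye orientation. Growth as spheres, the medium and the growth factors came with the H460C population, so their parts cannot be told apart. The same holds for the slide, since each population lay on a slide of its own. The labels name 1 H460 RNA sample for all arrays, and its own spread is not part of any test. Nothing in the labels says that replicates came from separate cultures. The limma p-values thus measure the spread between these RNA samples, which may be technical. Rank Products uses no spread, only the ranks of a probe in these same RNA samples. A channel had 22834 to 28499 probes above background. The difference between the 2 H460C replicates, read once in each dye orientation, correlated with r = -0.01 over 24642 probes, so these replicates did not stand apart beyond hybridization noise and are given as 1 sample, without SD. For H460R the same correlation was 0.27, and values are given as mean ± SD (n = 2). The main tests nonetheless took the H460C replicates as 2 samples, which can make the p-values and FDRs that rest on them too small. Of the 5 epithelial markers, KRT8, KRT18 and KRT19 were well above background in every channel, EPCAM in all H460C, 3 of 4 H460R and 7 of 8 H460 channels, and CDH1 on all 4 H460C arrays but in none of the H460R or H460 channels. Of the stem-like markers, CD44, ALCAM, POU5F1 and ALDH1A1 were above background in every channel and PROM1 in none. SOX2 was in 2 H460C, 2 H460R and 1 H460 channels. Among leukocyte markers PTPRC was above background in no channel, CD3E on all arrays of both populations and in 6 of 8 H460 channels, and CD68 in every channel. Of the endothelial markers, PECAM1 was on the 4 H460C arrays only, and VWF in 3 H460C, 4 H460R and 4 H460 channels. Of the fibroblast markers, PDGFRB was in every channel, and DCN on 1 H460C array, all 4 H460R arrays and in all 8 H460 channels. The part of these in the results was not tested.

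EGR proteins are zinc finger transcription factors of the immediate early class: their genes need no new protein to be transcribed and respond within minutes to growth factors, serum, or stress, mostly through the ERK pathway. SRF binds a short AT-rich element, the CArG box, upstream of many such genes together with ETS-type partners such as ELK1, and with actin-sensitive partners (MRTF proteins) at cytoskeletal genes. NAB1 and NAB2 bind EGR proteins and repress transcription through them, in part through the NuRD chromatin complex, and NAB2 is itself known as a target of EGR1.

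The start regions of the genes were searched for the SRF element in its strict form, CC, then 6 letters that are A or T, then GG. RefSeq windows of 300 bases, from 250 bases before a transcription start, were searched in build GRCh38.p14 for 6 of the 7 genes, not EGR3. Those at 3 starts are printed because they hold CArG boxes, which are in capitals, next to the start of EGR1, EGR2 and SRF itself. All are written 5′ to 3′ on the strand of the gene. The EGR1 window lies at chr5:138465229-138465528 on the + strand, the EGR2 window at chr10:62816317-62816616 on the - strand and the SRF window at chr6:43171019-43171318 on the + strand.
EGR1: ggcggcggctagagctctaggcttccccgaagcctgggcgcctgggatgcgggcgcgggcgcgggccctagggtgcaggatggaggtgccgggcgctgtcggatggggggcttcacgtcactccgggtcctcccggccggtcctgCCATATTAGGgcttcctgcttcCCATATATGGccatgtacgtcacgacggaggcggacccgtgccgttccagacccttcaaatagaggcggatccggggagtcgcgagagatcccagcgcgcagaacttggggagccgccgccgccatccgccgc
EGR2: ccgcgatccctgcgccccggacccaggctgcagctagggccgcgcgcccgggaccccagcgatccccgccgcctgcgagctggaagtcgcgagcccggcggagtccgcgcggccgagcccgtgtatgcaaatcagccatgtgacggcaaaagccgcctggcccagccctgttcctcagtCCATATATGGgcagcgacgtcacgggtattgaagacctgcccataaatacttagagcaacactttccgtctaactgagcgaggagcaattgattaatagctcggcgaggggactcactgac
SRF: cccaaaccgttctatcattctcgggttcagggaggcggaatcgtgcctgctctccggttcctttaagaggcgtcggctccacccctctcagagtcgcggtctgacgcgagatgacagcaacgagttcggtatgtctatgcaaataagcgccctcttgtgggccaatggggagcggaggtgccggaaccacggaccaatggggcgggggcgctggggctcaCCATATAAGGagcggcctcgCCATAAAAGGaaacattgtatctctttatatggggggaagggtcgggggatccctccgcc

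The EGR1 window held 2 CArG boxes, at -105 to -96 and at -83 to -74 from the start. The SRF window also held 2, at -30 to -21 and at -10 to -1, and the EGR2 window held 1, at -71 to -62. Over all 35116 windows of the table, on both strands, 1.29% held a CArG box and 11 windows (0.0313%) held at least 2. The other 2 starts of EGR2, the other start of SRF, and the windows of EGR4, NAB1 and NAB2 held none. The EGR binding motif GCGNGGGCG, present in 9.43% of all windows, was found once in the windows of EGR1, SRF and NAB2, and once at another start of EGR2. At 2 neighbouring starts of NAB1, whose windows overlap, it was found 3 and 4 times. The 3 matches of the first window are the same sites as 3 of the 4 in the second, and 2 of these overlap each other. The cyclic AMP response element TGACGTCA (1.85% of windows) was in none of the 11 windows. The shorter TGACGT, which lies within it (7.98% of windows), was found 2 times for EGR1 and for EGR4, and once for EGR2 and at the remaining start of NAB1. A match is a description of these letters and not a measured binding site. A window without a match says nothing on looser forms of a motif or on bases outside the window.

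EGR1, the prototype of the family, was far more abundant in both populations than in H460 cells. In H460C, its log2 ratio over H460 was 3.58 and 3.69 on the arrays of replicate 1 (population in Cy3 and in Cy5, respectively) and 3.59 and 4.14 on those of replicate 2. In H460R, the log2 ratios were 5.14 and 5.42 for replicate 1, and 5.18 and 5.52 for replicate 2. All 4 H460R arrays lay above all 4 H460C arrays, and all 8 lay above 3.5, in both dye orientations. The mean log2 ratio was 3.75 in H460C, a 13.4-fold higher level (FDR 0.00245, Rank Products), and 5.31 ± 0.05 in H460R, 39.8-fold higher (FDR 3.84e-05). EGR1 was the only one of the 6 tested genes that was called in either population. Of all 12374 genes tested, 0.719% were called higher in H460C and 0.55% in H460R.

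Among all tested genes, EGR1 had the highest ratio in H460R, on the averaged values as well as on each of the 4 arrays taken alone. In H460C it ranked 10 on the averaged values, and between 7 and 19 on single arrays. EGR1 was also the only tested gene of the 6 with a log2 ratio over 1 on all 4 arrays of a population, which 3.1% of all genes had in H460C and 1.61% in H460R.

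The intensities behind these ratios were well above background in both channels of all 8 arrays, and no spot was saturated. With the population in Cy3, the median EGR1 spot intensity, before any normalization, was 5655 and 5438 in H460C and 9820 and 13749 in H460R. The H460 channel of those arrays gave 621 and 588, and 509 and 561.5. With the dyes swapped, the intensity was 16628.5 and 16224 in H460C and 28243 and 32381 in H460R, against 291.5 and 284, and 260 and 248, in H460. H460 thus had a measurable, low EGR1 signal on both slides, and the difference between populations lay mainly in the channel of the studied cells. Ratios were somewhat higher with the population in Cy5 (mean log2 ratio 3.91 in H460C and 5.47 in H460R) than in Cy3 (3.58 and 5.16).

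**Figure D1:**
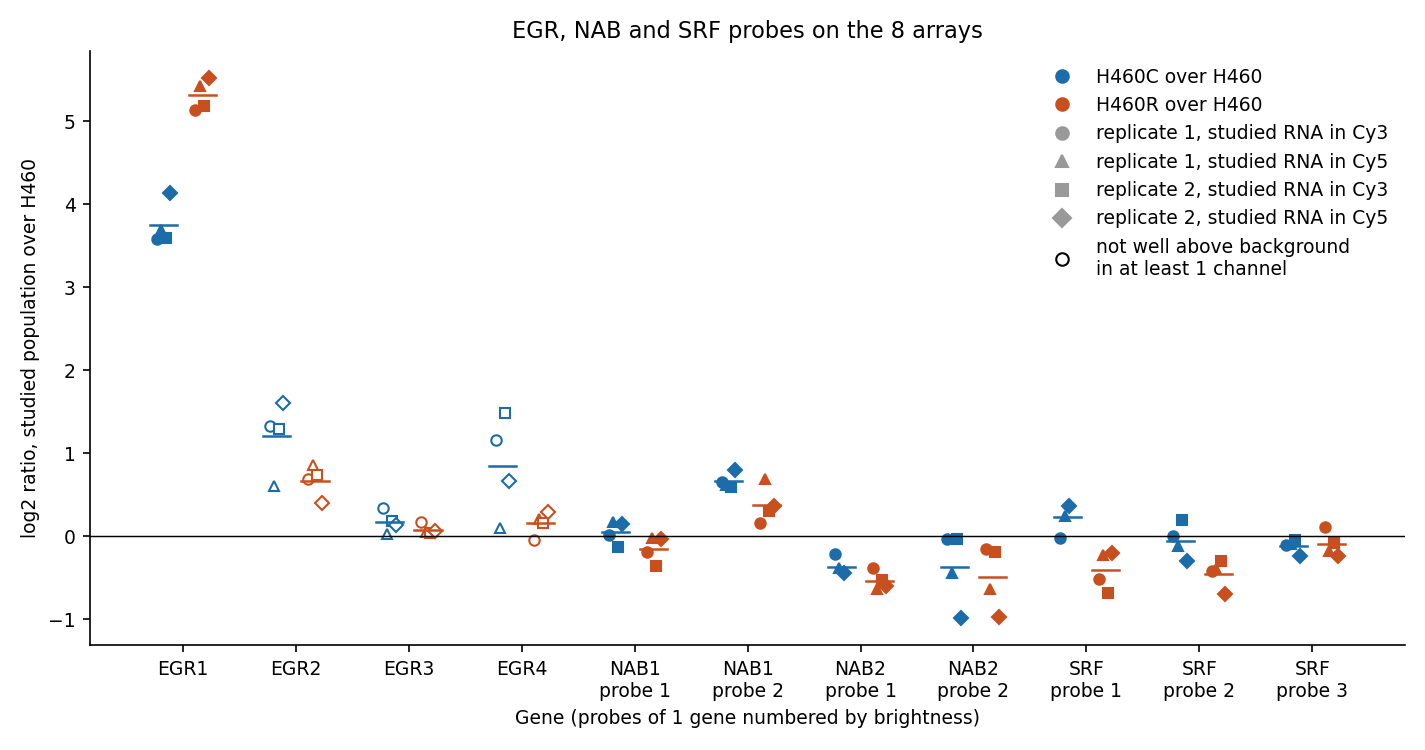
Log2 ratio over H460 (vertical axis) of the 11 probes of the 7 genes on each array, with H460C in blue and H460R in orange. Point shapes give the replicate and the dye of the studied RNA, open points a channel that was not well above background, and lines the mean of the replicates; EGR1 lies between 3.58 and 5.52 while every other probe stays between -0.99 and 1.61.

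EGR2, known for its role in myelination and in T cells, was detected in both populations but not in H460. Its log2 ratio was 1.33, 0.61, 1.29 and 1.61 on the 4 H460C arrays, in the same order as above. On the H460R arrays it was 0.69, 0.86, 0.74 and 0.40. All 8 values were above 0, and the groups overlapped, since the lowest H460C array was under 3 of the H460R arrays. In the authors' processed table of log2 ratios the groups did not overlap, with 1.07 to 1.31 in H460C and 0.33 to 1.01 in H460R. The H460C array at 0.61 had 1.28 there. The probe was well above background in the channel of the studied cells on all 8 arrays, with intensities of 183 to 418 in H460C and of 96 to 231 in H460R. In H460 it was above background on none of the arrays (intensities of 55 to 95), so that H460 has only a bound. Measured against that bound, EGR2 was at least 2.27-fold higher in H460C and at least 1.59-fold higher in H460R. By Rank Products it was not called in either (mean log2 ratio 1.21, FDR 0.254, and 0.67 ± 0.15, FDR 0.531). With the Feature Extraction log ratio, which subtracts the background in full, the log2 ratios were 3.85 (FDR 0.0348) and 2.74 (FDR 0.0323), and EGR2 was called in both. On single arrays these ratios were 3.47 to 4.64 in H460C and 2.40 to 3.57 in H460R, and overlapped. The probe passed the filter through H460C and H460R, where it is high, and not through H460. These folds and calls are therefore a description and support nothing.

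EGR4, mostly studied in neurons, was detected in H460C and in part of the H460R arrays. The log2 ratios on the H460C arrays were 1.16, 0.10, 1.48 and 0.66, higher on the Cy3 than on the Cy5 array of each replicate. On the H460R arrays they were -0.04, 0.21, 0.17 and 0.29. The probe was well above background in the studied cells on all 4 H460C arrays (intensities of 122.5 to 151), on the 2 H460R arrays with H460R in Cy5 (97 and 112), and in no H460 channel (53 to 79). Against the bound for H460, the mean EGR4 signal in H460C was 1.65-fold higher, though single arrays had log2 ratios down to 0.10. The probe passed the filter through H460C alone, where it is high, so this fold is a description. In H460R, where 2 of 4 arrays measured it, no fold is given. EGR4 was not called (mean log2 ratio 0.85, FDR 0.436, in H460C and 0.16 ± 0.10, FDR 1, in H460R, Rank Products). EGR3, the remaining member of the family, was not well above background in any channel. Its intensities were 47 to 96 in the studied cells and 45 to 67.5 in H460, and no fold is given.

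**Figure D2:**
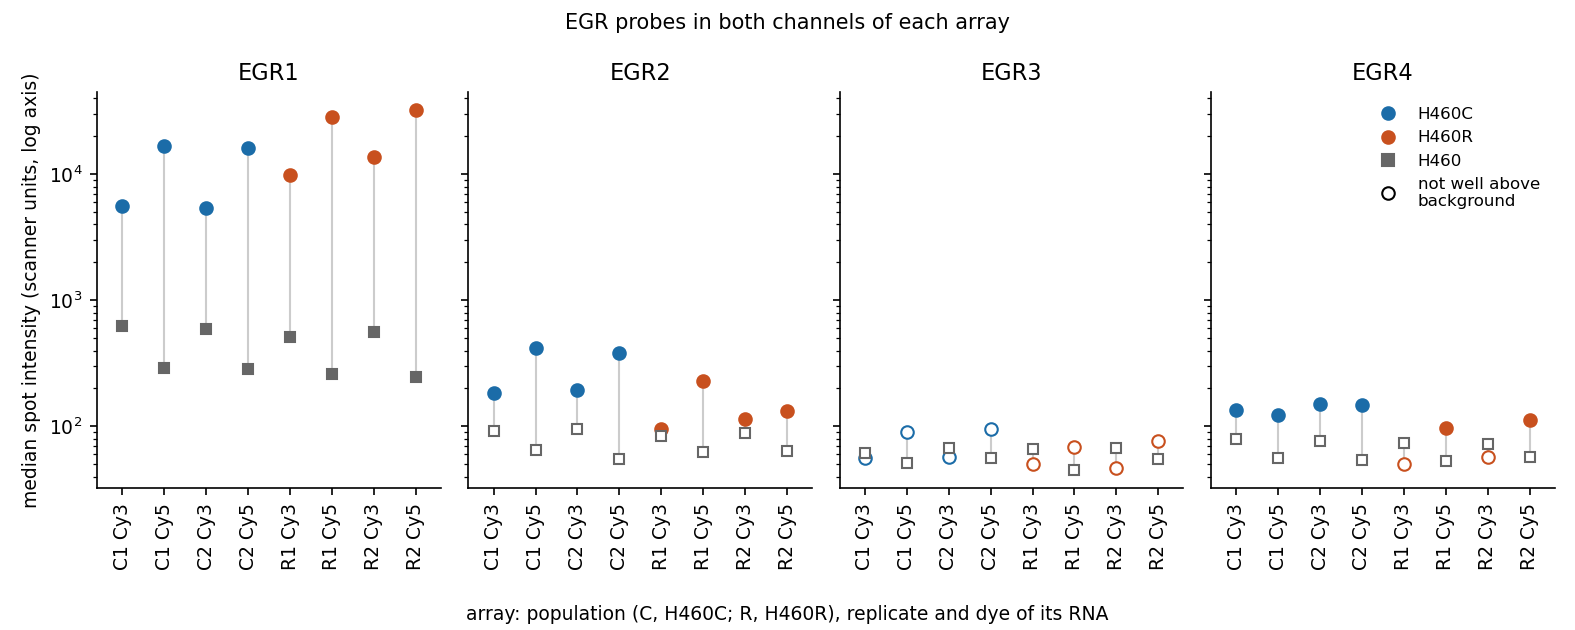
Median spot intensity before normalization (logarithmic vertical axis, scanner units) of the EGR probes in both channels of each array, with H460C in blue, H460R in orange and H460 as gray squares. Open symbols were not well above background: all H460 signals of EGR2, EGR3 and EGR4, all EGR3 signals and the 2 EGR4 signals of H460R in Cy3. Levels of different probes cannot be compared.

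By Rank Products, neither corepressor was called in either population. NAB1 had 2 probes that gave different ratios. For the brighter one the log2 ratio was 0.02, 0.17, -0.13 and 0.14 on the H460C arrays and -0.19, -0.02, -0.35 and -0.04 on the H460R arrays, so that values lay on both sides of 0 in H460C and under 0 in H460R. For the other one it was 0.65, 0.62, 0.59 and 0.80 in H460C and 0.16, 0.69, 0.30 and 0.37 in H460R, all above 0. Neither probe was called in H460C (mean log2 ratio 0.05, FDR 1, and 0.67, FDR 0.570) or in H460R (-0.15 ± 0.06, FDR 1, and 0.38 ± 0.06, FDR 0.847). The direction of NAB1 over H460 thus depends on the probe. All NAB1, NAB2 and SRF probes were well above background in both channels of all arrays, and none was saturated.

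Both NAB2 probes had mean ratios under 0. The brighter one had log2 ratios of -0.21 and -0.38 for replicate 1 of H460C and of -0.44 on the 1 usable array of replicate 2, where the other spot was an outlier. In H460R it had -0.38, -0.63, -0.52 and -0.60. The second probe had -0.03, -0.44, -0.04 and -0.99 in H460C and -0.15, -0.63, -0.18 and -0.97 in H460R, lower in Cy5 than in Cy3 within each replicate. Every usable array of both probes was under 0. The mean log2 ratios were -0.37 for both probes in H460C (FDR 0.808 and 0.803), and -0.53 ± 0.04 (FDR 0.511) and -0.49 ± 0.13 (FDR 0.569) in H460R. NAB2 was therefore not called lower by Rank Products, which called 0.541% of genes lower in H460C and 0.509% in H460R. On each usable array NAB2 lay under its level in H460 while EGR1 lay above its own.

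SRF, whose own window carries 2 CArG boxes, was close to its level in H460. Its brightest probe had log2 ratios of -0.02 and 0.24 for replicate 1 of H460C and 0.37 on the 1 usable array of replicate 2. In H460R it had -0.52, -0.22, -0.68 and -0.20, all under the H460C values. The second probe had 0.01, -0.11, 0.20 and -0.30 in H460C and -0.41, -0.39, -0.30 and -0.69 in H460R. The third, the dimmest, had -0.11, -0.09, -0.05 and -0.24 in H460C and 0.12, -0.18, -0.08 and -0.23 in H460R, which overlap. The mean log2 ratios of the 3 probes were 0.24, -0.05 and -0.12 in H460C (FDR 1 for each) and -0.40 ± 0.05 (FDR 0.679), -0.45 ± 0.07 (FDR 0.618) and -0.09 ± 0.09 (FDR 1) in H460R. Rank Products called none of them.

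Whether the populations differ from each other was asked with limma on the 4 ratios, where the shared H460 RNA cancels. EGR1 was lower in H460C than in H460R by 2.96-fold (log2 difference -1.57, SE 0.09, 95% interval from -1.80 to -1.34, adjusted p = 0.000213). The difference also passed when a change beyond 1 on the log2 scale was required (adjusted p = 0.0252), which 2.62% of genes did in this direction. EGR2 was instead higher in H460C (log2 difference 0.54, SE 0.17, adjusted p = 0.0447), at a dim probe. EGR2 lost its call with the Cy5 arrays alone (0.48, adjusted p = 0.365), with an offset of 0 (0.66, adjusted p = 0.241), and when 1 RNA sample was left out, namely H460C replicate 2 (0.30, adjusted p = 0.0767), H460R replicate 1 (0.64, adjusted p = 0.116) or H460R replicate 2 (0.43, adjusted p = 0.226). For EGR4 the difference was 0.69 (SE 0.15). Its probe passed the filter through H460C alone, where it is high, and was not above background on 2 of the 4 H460R arrays, so this value is a description and its call supports nothing. With the Cy5 arrays alone, on which EGR4 was measured in both populations, the difference was 0.13.

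SRF was higher in H460C than in H460R at its 2 brighter probes, by 0.64 (SE 0.10, adjusted p = 0.00387) and 0.40 (SE 0.06, adjusted p = 0.00393) on the log2 scale. The third probe gave -0.03, with a 95% interval from -0.20 to 0.14 (adjusted p = 0.742). At the brightest SRF probe the H460 intensity before normalization differed between the slides. With the population in Cy3 it was 4471 and 5381 on the H460C slide and 1318 and 1721.5 on the H460R slide. With the dyes swapped it was 694 and 1118, against 1347 and 1698. A part of the slide in the SRF difference was not tested. NAB1 was higher in H460C by 0.20 (adjusted p = 0.0480) and 0.29 (adjusted p = 0.0133) at its 2 probes. At the second one the H460 intensity differed between the slides too. With the population in Cy3 it was 766 and 938 on the H460C slide and 190.5 and 256 on the H460R slide. With the dyes swapped it was 278 and 455, against 176 and 447. A part of the slide in the NAB1 difference was not tested. For NAB2 the differences were 0.17 (95% interval from -0.02 to 0.35, adjusted p = 0.108) and 0.11 (from -0.18 to 0.41, adjusted p = 0.447). Read at the brightest probe, 5 of the 6 genes were called between the populations, EGR4 among them. Of all genes, 60% did, 30.8% higher in H460C and 29.2% higher in H460R, so this count is near what most genes showed. Without H460C replicate 2, H460R replicate 1 or H460R replicate 2, the count was 3, 2 and 2, and EGR1 and SRF were among the calls each time. With the H460C replicates averaged into 1 sample it was 4, without NAB1 (adjusted p = 0.131).

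**Figure D3:**
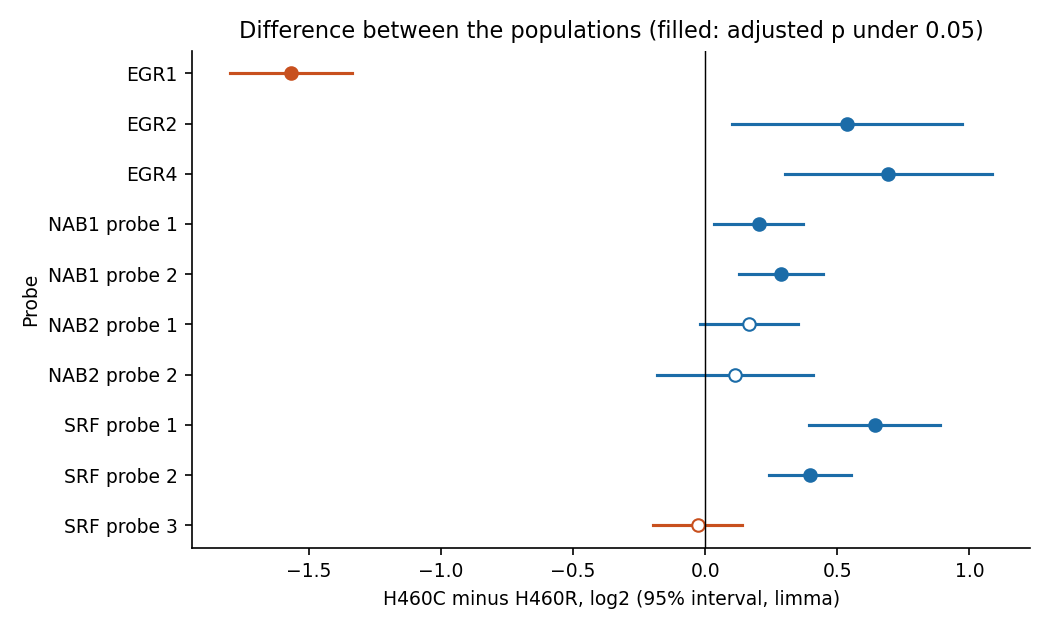
Difference between the log2 ratios of H460C and H460R (horizontal axis, H460C minus H460R) with its 95% interval from limma, for the 10 tested probes. Filled points had an adjusted p under 0.05; EGR1 at -1.57 is the only filled point on the side of H460R, and the intervals of NAB2 and of the third SRF probe include 0.

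The ratios against 0 can also be tested with limma, which weighs the spread between replicates and not the rank of the change. In H460C, EGR1, EGR2, EGR4 and SRF were then called higher and NAB2 lower, where EGR4 had passed the filter through H460C alone. In H460R, EGR1 and EGR2 were called higher and NAB1, NAB2 and SRF lower. EGR2 had passed the filter through H460C and H460R and not through H460, so its calls over H460 support nothing. By this test 37.4% of all genes were called higher and 35.6% lower in H460C, and 36% and 33.6% in H460R. The 5 of 6 genes called in each population are to be read against those shares. When H460R replicate 1 or 2 was left out, 3 of the genes were called in H460R. In H460C, SRF lost its call without H460C replicate 2, H460R replicate 1 or H460R replicate 2, which left 4 genes. With a change beyond 1 on the log2 scale required, EGR1 was the only one called in either population, against 3.15% of genes higher in H460C and 1.15% in H460R.

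The genes with a pattern most like that of EGR1 over the 8 arrays, by the distance between their log2 ratios, were JUN (distance 3.80), FOS (6.33), ADM (6.37), HES1 (6.42) and PTGS2 (6.59). JUN and FOS encode the subunits of the AP-1 factor, ADM a vasodilator peptide, HES1 a repressor downstream of Notch, and PTGS2 an enzyme of prostaglandin synthesis. The mean log2 ratio of JUN was 3.74 in H460C and 3.55 in H460R, nearest to EGR1 in H460C and well under it in H460R. For FOS the means were 1.89 and 2.76, and for HES1 1.56 and 2.98, which as for EGR1 were higher in H460R. For PTGS2 they were 4.07 and 2.10, in the opposite order, and for ADM 2.51 and 2.38.

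EGR1 belongs to the immediate early genes. Of 22 other genes of that class, 21 were tested, of which 2 were called in H460C and 4 in H460R. Of all genes, Rank Products called 0.719% higher and 0.541% lower in H460C, and 0.55% and 0.509% in H460R. In H460C, Rank Products called JUN (FDR 0.00245) and IER3, a stress-induced survival gene (log2 ratio 2.61, FDR 0.0290), higher, and FOS had 1.89 (FDR 0.0884). In H460R it called JUN (FDR 0.000256), FOS (FDR 0.00182) and CCN1, a matrix signaling protein (1.86, FDR 0.0279), higher, and the transcription factor KLF2 lower (-2.19, FDR 0.00234). The median log2 ratio of the list was 0.35 in H460C and 0.37 in H460R, against -0.0019 and 0.0031 over all genes, and 14 and 15 of the 21 genes had ratios above 0, as did 6168 and 6237 of all 12374 genes.

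The ERK feedback list, of genes that ERK signaling turns on and some of which then dampen it, gave no Rank Products call among 11 genes in either population. With the shares of all genes given above, a list this short could well hold none. The median log2 ratio was -0.14 in H460C and -0.11 in H460R. In H460C the largest values were those of SPRY2 (-1.10), ETV4 (-0.96) and DUSP6 (-0.92), and in H460R those of ETV4 (-0.91), PHLDA1 (-0.38) and ETV5 (-0.34). The SRF cofactors gave no call among 6 tested genes (medians -0.20 and -0.16). The LIM protein FHL2 had the largest value in H460C, -0.91, and ELK1 in H460R, -0.32. Next to these were MRTFB (-0.36) and ELK3 (-0.24) in H460C, and FHL2 (0.26) and ELK4 (-0.22) in H460R. Cytoskeletal targets of SRF gave no call among 14 tested genes (medians 0.11 and -0.0058). Values were spread to both sides in H460C, with CCN2 at -1.65 (FDR 0.0878), CNN2 at 1.64 and TPM1 at -1.54. In H460R the smooth muscle actin ACTA2 stood at 1.60 (FDR 0.0690), FLNA at -0.63 and TPM1 at -0.46.

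Of the genes described as EGR1 targets, 13 were tested. By Rank Products none was called in H460C and 1 in H460R, where 0.55% of all genes were called higher, the stress cytokine GDF15 (log2 ratio 1.89, FDR 0.0255). The list's median was -0.04 in H460C and 0.10 in H460R, and 6 and 8 genes had ratios above 0, as did 6168 and 6237 of all 12374 genes. Other large values were 1.33 for the angiogenic factor VEGFA and -0.72 for CD44 in H460C, and -1.29 for PDGFA (FDR just above the threshold) and 1.03 for fibronectin, FN1, in H460R. The NuRD subunits, the chromatin complex through which NAB proteins repress, gave no call among 8 tested genes. Their median was -0.02 in H460C and -0.17 in H460R. RBBP7 (0.87), RBBP4 (-0.35) and HDAC2 (0.27) had the largest values in H460C, and HDAC1 (-0.58), RBBP7 (0.37) and MTA1 (-0.30) in H460R. In the direct comparison by limma, which called 30.8% of all genes higher in H460C and 29.2% higher in H460R, the NuRD list had 5 and 1 of 8 genes called, respectively. The immediate early list had 6 and 7 of 21, the ERK feedback list 4 and 5 of 11, the SRF cofactors 1 and 1 of 6, the cytoskeletal targets 4 and 3 of 14 and the EGR1 targets 5 and 5 of 13.

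**Figure D4:**
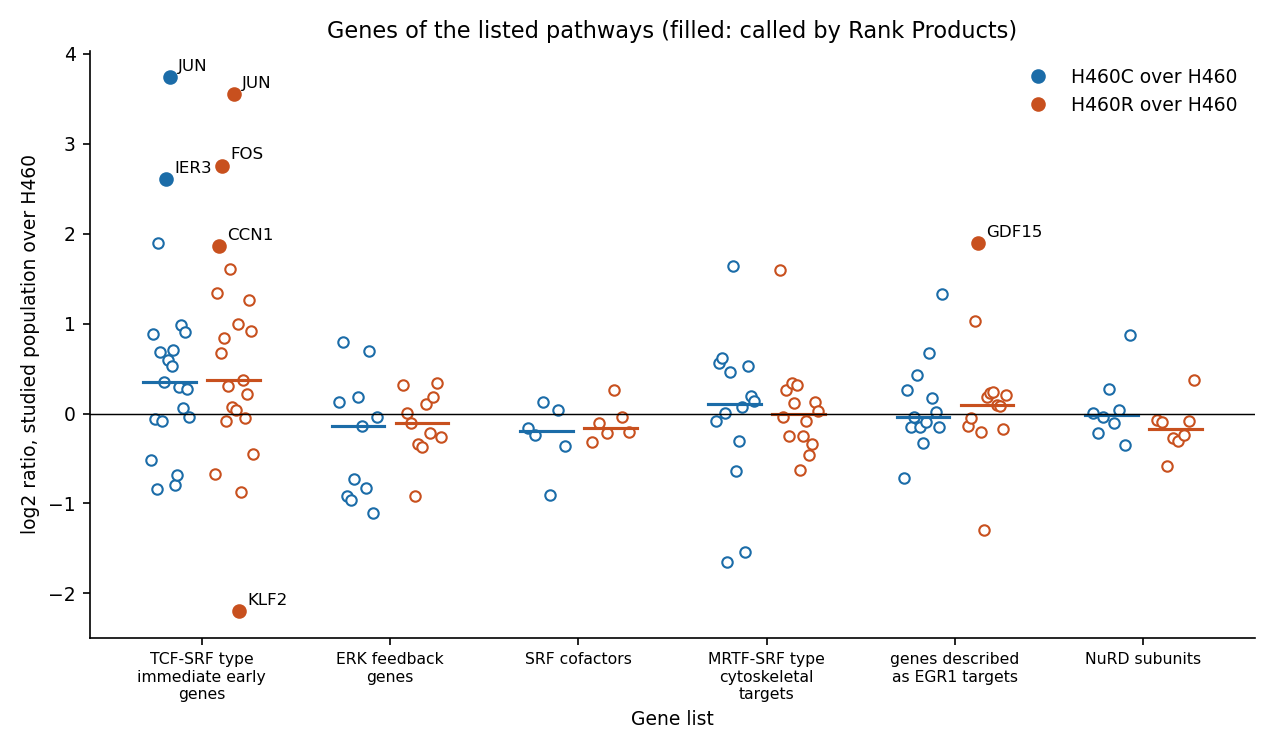
Mean log2 ratio over H460 (vertical axis) of each tested gene of the pathway lists, with H460C in blue and H460R in orange, the median of a list as a line, and genes called by Rank Products filled and named. Calls lie among the immediate early genes (JUN and IER3 in H460C; JUN, FOS, CCN1 and KLF2 in H460R) and at GDF15 among EGR1 targets, and list medians stay between -0.20 and 0.37.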

How the data were processed

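The array scans were extracted by the authors with Agilent's extraction program, Feature Extraction. Its version, 10.1.1.1, was read from the data header of 1 array (H460C replicate 1, H460C in Cy3). The deposited median intensity of each spot, which carries no normalization, was used here. The deposited log10 ratio had been made by the authors with that software after background subtraction and dye normalization. For 1 array (H460C replicate 1, H460C in Cy3) the decimal points of the log10 ratios were lost, so that the column as deposited is a score, and division by 10 to the power of 9 brought the log10 ratios back. The authors' processed table holds deposited log2 ratios, population over H460, already turned for dye swaps. Its columns correlated with the ratios used here at r = 0.949 to 0.997, its medians were -0.01 to -0.02, and its background correction is not given in the sources used here. Columns without a sample numbered 0.

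Normexp (offset 50) corrected the background and loess normalized each array. Control spots were left out and outlier spots set to missing, also for the brightest NAB2 and SRF probes on the array of H460C replicate 2 in Cy3. Spots were averaged into probes, and probes entered with a share of at least 0.5 of spots above background in all channels of some population (26046 probes, 26014 with all ratios). Dye-swap pairs were averaged into 1 ratio. RefSeq (GRCh38.p14), from which names and promoter windows come, gave a symbol for 23958 of the 41000 probes. A gene was read at its brightest probe.

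Ratios against H460 were tested with Rank Products (exact distribution of the product of 2 ranks, FDR 0.05 over 26014 probes, each direction). This took the H460C replicates as 2 samples, as planned. H460C and H460R were compared on their 4 ratios with limma, two-sided, with 2 residual degrees of freedom and 3.24 prior ones. A bound sets the bright group's mean against the higher of the dim probe's own signal and the lowest signal among probes well above background. Single arrays can lie under it. The software was R 4.3.3 with limma 3.58.1 and version 1.17.8 of data.table. Both tests were tested on simulated data. The number of arrays limits the precision.

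The genes, the lists and the rules were chosen with earlier results of these data known. The rule names all probes of the 7 genes, the list genes called by Rank Products, the 3 with the largest ratio per list and population, and the 5 nearest to EGR1. Of the genes that this rule selects, 1 is not reported here. ATF3 and MBD3 were not matched to a probe, and MYOCD, MYL9 and PDGFB did not pass the filter. The alternatives were other background corrections, median centring, the Feature Extraction log ratio, the authors' table, other filters, single dye orientations, the mean over probes, limma with and without a minimum of 1, the replicate block, averaged H460C replicates, and leaving out each replicate.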

Additional observations from a re-analysis of the deposited data

Results flagged for a closer look

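The responses of the 2 populations differed by a test of the difference itself (limma, H460C minus H460R, Benjamini-Hochberg over 26014 probes) at 7 of the 10 tested probes. Read at the brightest probe, 5 of the 6 genes differed, EGR4 among them, as did 60% of all genes. EGR1 differed by -1.57 on the log2 scale (adjusted p = 0.000213), the only one higher in H460R. EGR2 differed by 0.54 (adjusted p = 0.0447), at a probe that was not well above background in H460. EGR4 differed by 0.69, at a probe that passed the filter through H460C alone and was not above background in H460 or on 2 of the 4 H460R arrays, so that its call supports nothing. The 2 NAB1 probes differed by 0.20 (adjusted p = 0.0480) and 0.29 (adjusted p = 0.0133). The 2 brighter SRF probes differed by 0.64 (adjusted p = 0.00387) and 0.40 (adjusted p = 0.00393), and the dimmest one by -0.03 (adjusted p = 0.742).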

How the results depend on the processing

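EGR1 kept its direction and its call under every alternative with a test, with log2 ratios of 3.58 to 4.07 in H460C, 5.16 to 5.62 in H460R and a difference of -1.68 to -1.45. SRF kept its difference between the populations under all 16 alternatives (0.34 to 0.89), none of which separates population from slide. With Cy3 arrays only, SRF and NAB2 were read at their second probe. Their brightest probes had no value on the Cy3 array of H460C replicate 2. The count of genes that differed between H460C and H460R, 5 of 6, was 2 with an offset of 0, 3 with the stricter filter, which leaves EGR2 and EGR4 untested, 2 with Cy5 arrays only, 1 with a minimum change of 1 required, and 2 to 4 when 1 replicate was left out. The count over H460, 1 in each population by Rank Products, was 2 in both with the Feature Extraction log ratio and 5 in both by limma against 0. The gene added by the Feature Extraction log ratio was EGR2, whose probe was not above background in H460. Without 1 replicate, Rank Products has a single ratio and gives no test. NAB1 reversed to -0.0546 in H460C with Cy3 arrays only and to 0.114 in H460R with the mean over its probes, and NAB2 reversed to 0.0434 in H460C with median centring; none of these 3 was called. NAB1 lost its call between the populations under 10 of 16 alternatives (adjusted p up to 0.392). NAB2 gained one with the Feature Extraction log ratio (0.18, adjusted p = 0.0374). The replicate block left 5 genes called and changed no call. The deviations of same-numbered samples correlated with r = 0.21 over 26014 probes, and with 2 pairs the samples share only a number. Except where a value shows it, the cause was not tested. Signal over background limits EGR2, EGR3 and EGR4.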
